A study of Rattus norvegicus with 12 samples.

Results

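The transcripts described here are long noncoding RNAs that carry the names of ribosomal protein and respiratory chain genes. They were taken from a table of 22591 noncoding transcripts by name alone: a transcript belongs if its locus name begins with Rpl, Rps, Mrpl, Mrps, Nduf, Uqcr, Atp5, Sdha, Sdhb, Sdhc or Sdhd, or with Cox and a digit. The rule found 168 transcripts under 119 locus names, on 20 chromosomes. The rule uses names and no measured value, but it was set with earlier results of these data known.

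The RNA came from the lumbosacral spinal cord of Wistar rat fetuses collected on embryonic day 19. The 3 ARM samples came from fetuses with anorectal malformations induced with ethylenethiourea (ETU), a teratogen that also suppresses the thyroid. The 3 normal samples came from normal fetuses of the same strain and stage, and the labels state no vehicle treatment for them. No dose or day of exposure is given in the sources used here, and since each ARM sample was also exposed, the malformation and the exposure cannot be told apart. The labels do not say whether samples of a group came from separate fetuses or litters, so each p-value reflects only the spread among these libraries, which may be technical. The tissue is a mixture of cells, so fewer cells of a type and less RNA per cell cannot be told apart.

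A ribosome has a small and a large subunit, built from ribosomal RNA and many proteins. Cytosolic ribosomes use the Rps (small) and Rpl (large) proteins, and the ribosomes inside mitochondria use the Mrps and Mrpl proteins, which are encoded in the nucleus and imported. Mitochondrial ribosomes translate the few respiratory chain subunits that mitochondrial DNA encodes. The chain itself passes electrons from NADH (complex I, Nduf genes) or succinate (complex II, Sdh genes) through complex III (Uqcr genes) to complex IV (Cox genes), which reduces oxygen, and complex V (Atp5 genes) uses the resulting proton gradient to make ATP. Neurons depend heavily on this supply, and growing tissue on ribosome production. Ribosomal protein mRNAs typically begin with a C followed by a run of pyrimidines (C or T), the 5′ terminal oligopyrimidine tract through which mTOR signalling controls their translation.

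The names are those of AceView, which groups cDNA evidence by locus and adds a letter for each variant, so that Rpl21.c is one variant at the Rpl21 locus. A locus name does not make a transcript the gene's messenger RNA: the table lists these as noncoding, and the strand they were counted on is not given in the sources used here. Ribosomal protein genes also have many processed pseudogenes of near-identical sequence, so counts at Rpl and Rps loci are uncertain where reads could have been split between copies. A few names mislead. Rps6kb2 and Rps6kc1 are kinases named after their substrate, ribosomal protein S6. Atp5sl is now called Dmac2 and is not an ATP synthase subunit. Cox11, Cox17 and Cox19 handle copper for complex IV and are not subunits of it.

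To show what sets the named genes apart at their starts, the promoters of 8 loci described below are printed from RefSeq, build GRCr8, from 60 bases before the annotated start to 20 bases from the start on, each 5′ to 3′ on the gene's strand. They are the promoters of the protein genes of these names, and not necessarily of the noncoding transcripts counted. Capitals mark runs of at least 8 C or T, TTCCGG (the core of sites for ETS factors such as GABP), AAGATGGC (the core of the YY1 site) and CGCATGCG (the palindromic core of the NRF1 site), on either strand. GABP, YY1 and NRF1 are known regulators of nuclear genes for mitochondrial proteins. Rpl21, Rpl22, Rps2 and Rps10 are cytosolic, Mrps31 and Mrpl17 mitochondrial, and Sdhd and Cox7a2l belong to the respiratory chain.
Rpl21 (chr12:13386134-13386213, minus strand): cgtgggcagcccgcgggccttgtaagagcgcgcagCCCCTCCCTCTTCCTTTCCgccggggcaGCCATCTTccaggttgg
Rpl22 (chr5:168117901-168117980, plus strand): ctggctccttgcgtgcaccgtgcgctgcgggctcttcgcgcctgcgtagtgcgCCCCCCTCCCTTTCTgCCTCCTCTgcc
Rps2 (chr10:14251788-14251867, plus strand): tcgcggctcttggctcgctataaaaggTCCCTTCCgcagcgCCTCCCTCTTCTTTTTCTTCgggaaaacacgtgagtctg
Rps10 (chr20:5700725-5700804, minus strand): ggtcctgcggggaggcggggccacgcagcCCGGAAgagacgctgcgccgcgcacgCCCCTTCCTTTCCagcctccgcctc
Mrps31 (chr16:76324046-76324125, minus strand): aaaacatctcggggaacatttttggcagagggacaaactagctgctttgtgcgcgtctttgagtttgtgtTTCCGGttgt
Mrpl17 (chr1:169575680-169575759, minus strand): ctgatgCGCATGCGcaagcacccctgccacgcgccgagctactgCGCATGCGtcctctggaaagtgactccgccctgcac
Sdhd (chr8:59850622-59850701, minus strand): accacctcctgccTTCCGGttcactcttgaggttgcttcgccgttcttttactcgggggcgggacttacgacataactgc
Cox7a2l (chr6:16936514-16936593, plus strand): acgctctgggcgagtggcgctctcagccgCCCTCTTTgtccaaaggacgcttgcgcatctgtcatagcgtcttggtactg
A pyrimidine run lies at or just before the start in the 4 cytosolic genes, and Mrpl17 carries CGCATGCG at more than one place. Of these 4 genes, only Rpl22 has a C at the annotated start followed by at least 4 more C or T. Of the 119 locus names, 89 genes matched the promoter table, with 90 promoters. A C at the annotated start followed by at least 4 more C or T was found in 12 of 36 cytosolic ribosomal promoters (33.3%), in 0 of 16 mitochondrial ribosomal promoters and in 0 of 36 respiratory chain promoters, against 2.63% of all 33469 promoters of the table. A run of at least 8 C or T, searched on the gene's strand from 30 bases before the start to 20 after it, was present in 26 of 36, 4 of 16 and 6 of 36 promoters of the same groups and in 19.9% of all promoters. Within the full 300-base windows and on both strands, TTCCGG was present in 55.6% of cytosolic ribosomal, 62.5% of mitochondrial ribosomal and 33.3% of respiratory chain promoters, against 14.95% of all promoters. AAGATGGC was present in 3 of 36, 4 of 16 and 8 of 36, against 3.17% of all, and CGCATGCG in 1 of 36, 2 of 16 and 2 of 36, against 1.66% of all. These matches describe letters and not binding.

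In this noncoding table the libraries held 3285614 to 3721901 counts in ARM samples and 3428655 to 3865088 in normal samples, and the depth of the whole libraries was not used here. Among markers of the tissue, only 10 of 21 listed spinal neuron genes, 8 of 17 progenitor and glial genes and 3 of 12 lumbosacral Hox genes had any transcript in this noncoding table. The neuronal ones, mostly Meg3, summed to 24737 to 26836 CPM (a transcript's count relative to the scaled total of its library) in ARM and 19570 to 23919 CPM in normal libraries. Of 19 tested, 16 had estimates higher in ARM, with 0 past the threshold. At an unadjusted p under 0.05 (edgeR), 6 of the 19 were higher in ARM and 0 lower, against 3.44% and 2.54% of all tested transcripts. Meg3 made up nearly all of these sums, and 9 of the 19 were its transcripts. Without Meg3 the neuronal sums overlapped, at 701 to 791 CPM in ARM and 605 to 751 CPM in normal libraries, with 8 of 10 estimates higher in ARM and 2 lower. Glial markers summed to 150 to 166 CPM in ARM and 160 to 170 CPM in normal libraries, with 7 of 8 estimates lower in ARM. Dorsal root ganglion markers summed to 528 to 591 CPM in ARM and 425 to 562 CPM in normal libraries, with 3 of 4 estimates higher in ARM and 1 lower. Of these 4, 1 passed the threshold, higher in ARM, against 0.12% of all tested transcripts, and 1 other had an unadjusted p under 0.05, lower in ARM. Pou4f1 made up most of these sums, with 1674, 1982 and 1995 counts in ARM libraries, against 1312, 1754 and 1953 in normal libraries. The transcript past the threshold was its minor variant Pou4f1.a, with 163, 216 and 184 counts in ARM libraries, against 11, 5 and 18 in normal libraries. Cartilage and connective tissue markers summed to 117, 76.6 and 62.8 CPM in ARM libraries and to 56.0 to 86.5 CPM in normal libraries. Of these, Col2a1 had 177, 39 and 41 counts in ARM libraries, against 24, 1 and 65 in normal libraries. Blood and endothelial markers summed to 31.0 to 37.4 CPM in ARM and 33.6 to 46.3 CPM in normal libraries. Skeletal muscle markers reached at most 1.81 CPM in ARM and 0.536 CPM in normal libraries, where 2 of 11 genes had a transcript. The part of any of these in the values below was not tested.

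Noncoding transcripts with ribosomal and respiratory chain names were a small share of the counts. They took 0.378%, 0.461% and 0.397% of the counts in the 3 ARM libraries, against 0.403%, 0.398% and 0.461% in the 3 normal libraries. The means were 0.412% ± 0.0436 in ARM and 0.420% ± 0.0351 in normal samples (SD, n = 3 each), and the groups overlapped. Single loci set much of that spread: without the 1 transcript of Cox7a2l, whose protein promotes the joining of complexes III and IV, the shares were 0.388% ± 0.0191 in ARM and 0.383% ± 0.0254 in normal samples. Cytosolic ribosomal names made up most of the set, at 0.235% ± 0.0169 of counts in ARM and 0.241% ± 0.0228 in normal samples. Respiratory chain names took 0.139% ± 0.0280 in ARM and 0.144% ± 0.0308 in normal samples, and mitochondrial ribosomal names 0.0370% ± 0.00604 in ARM and 0.0350% ± 0.00298 in normal samples. The mitochondrial small subunit alone did not overlap between groups. It took 0.0161%, 0.0163% and 0.0169% in ARM libraries, against 0.0153%, 0.0125% and 0.0129% in normal libraries. It was singled out after the shares of all subunits and complexes were seen. Among the single transcripts tested below, 12.0% of all did not overlap between groups, 7.44% with ARM higher.

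As a set, these transcripts had a higher median level than the table around them and a smaller share of unspliced variants. Their median level was 14.99 CPM per kilobase of deposited length, against 7.38 for all 22591 transcripts, and 93.5% of them were detected in all 6 libraries, against 83.1% of the table. Their lengths ran from 239 to 4942 bases, with a median of 660.5, close to the 677 of all transcripts. AceView calls 43 of the 168 unspliced (25.6%), against 49.7% of all transcripts with an AceView name. Another transcript of the table overlapped 76 of them (45.2%), against 31.9% of the table, and 8 locus names held 3 or more transcripts. The median level of transcripts of the cytosolic large subunit was 22.4 and of the small subunit 25.4 CPM per kilobase. Mitochondrial ribosomal names were lower, at 5.74 for the large and 7.68 for the small subunit. Complexes I, II, III and V had medians of 13.7, 14.1, 17.7 and 14.7.

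The highest level was that of Rpl21.c, a variant at the locus of a large-subunit protein (chromosome 12, 9996610 to 10000152, 1017 bases; coordinates throughout are the deposited ones, whose build is not given in the sources used here). It had 1199, 1541 and 1569 counts in ARM libraries, against 1564, 1539 and 1900 in normal libraries. That is 395 ± 35.9 CPM per kilobase in ARM and 451 ± 49.2 in normal samples (SD, n = 3 each), and the groups overlapped. The second highest mean was that of Cox7a2l.c, which was far from steady and is described with the unsteady transcripts below. Rpl41.1.b, named for the very short large-subunit protein L41, had 213, 311 and 243 counts in ARM libraries, against 255, 308 and 425 in normal libraries. Rps24.e, a small-subunit locus, was among the most even, at 457, 532 and 517 counts in ARM libraries, against 461, 495 and 561 in normal libraries. Its level was 177 ± 8.61 CPM per kilobase in ARM and 174 ± 12.6 in normal samples. Rpl21.c lay above Rpl41.1.b in every library, whereas Cox7a2l.c ranged across both, and the next neighbours in this order did not differ beyond their spread. By CPM without regard to length, Rpl22.c, a longer variant at another large-subunit locus, was also among the first, with 357, 397 and 494 counts in ARM libraries, against 401, 352 and 382 in normal libraries, which overlapped.

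**Figure D1:**
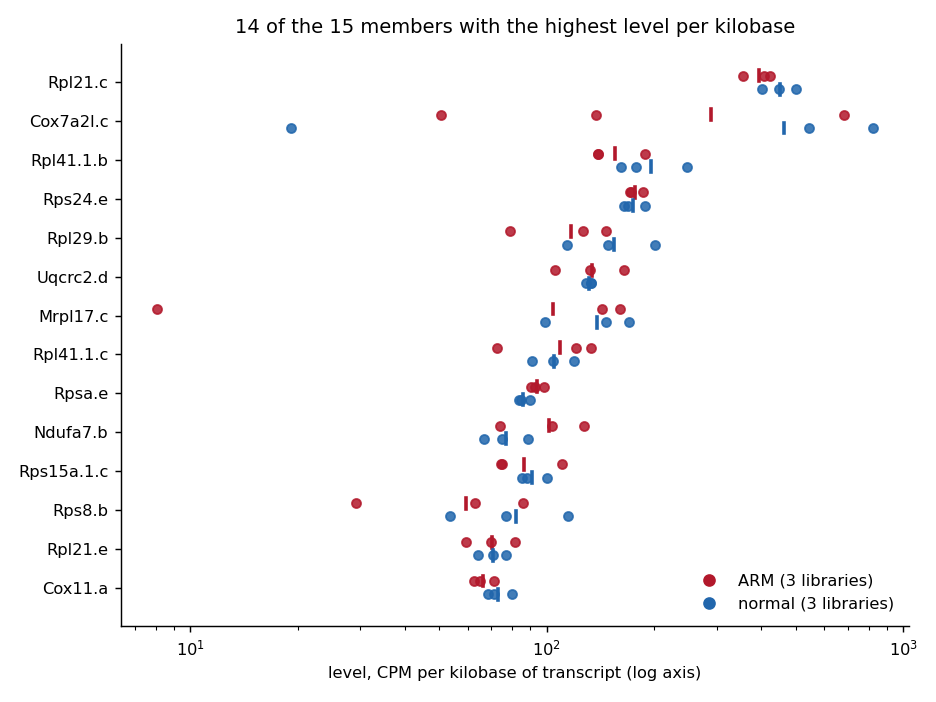
Level of 14 of the 15 highest transcripts in each library, as CPM per kilobase on a log axis, with ARM libraries in red drawn above normal libraries in blue and the group mean as a vertical tick. Rpl21.c is highest and even, whereas Cox7a2l.c and Mrpl17.c spread widely within a group.

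The comparison the study was built for is ARM against normal cord. In edgeR's quasi-likelihood test over all 13343 transcripts that passed the expression filter, 0 of the 137 tested transcripts with these names passed an adjusted p of 0.05, where 16 transcripts of the table did (0.12%). The smallest adjusted p (Benjamini-Hochberg) among them was 0.832. At an unadjusted p under 0.05 there were 4 (2.92%), 3 higher and 1 lower in ARM, against 5.98% of all tested transcripts, 3.44% higher and 2.54% lower. That count was 7 without ARM replicate 1 and 9 without normal replicate 3. DESeq2 also called 0 (0.345% of the table), with 3 at an unadjusted p under 0.05 (4.21% of the table), and limma-voom 0 (0.12%), with 3 (6.09%). The remaining 31 of the 168 fell under the filter, 12 of them Mrpl and 8 Mrps names, and were not tested. With counts summed over the overlapping transcripts of each locus, 0 of 111 tested loci passed, against 0.12% of all features in that fit, with a smallest adjusted p of 0.830. At an unadjusted p under 0.05 there were 4 loci (3.60%), against 5.98% of all features in that fit. Mrps31 is counted more than once among them, since its variants do not overlap and were not summed. On simulated counts the transcript test found 0 of 64 changes of 2-fold, so a count of 0 does not exclude changes of that size.

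The estimates lay close to 0. The median log2 fold change of the 137, ARM over normal, was 0.06, with quartiles of -0.14 and 0.25, against a median of 0.01 and quartiles of -0.18 and 0.23 over all tested transcripts. Estimates were within 0.5 of 0 for 116 of the 137 (84.7%), against 83.0% of all. They were higher in ARM for 80 of 137 (58.4%), against 51.5% of all tested and 54.1% of those with an AceView name. The 3 ARM libraries lay on one side of the 3 normal ones for 11 of the 137 (8.03%), against 12.0% of all tested. Of the 11, 7 were higher in ARM (5.11%, against 7.44%) and 4 lower (2.92%, against 4.54%). The shares without overlap were thus below those of the table.

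**Figure D2:**
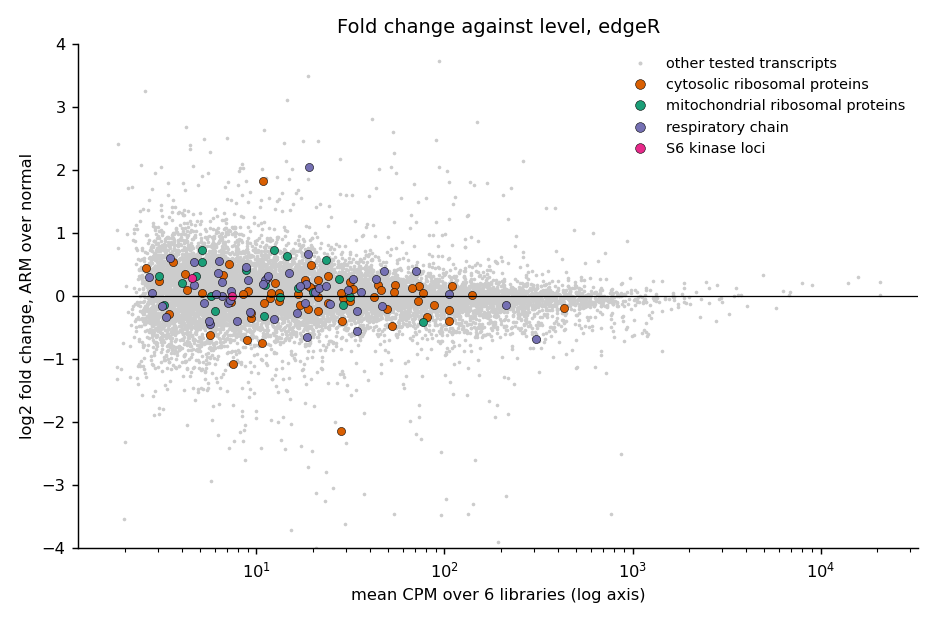
Log2 fold change, ARM over normal, against mean CPM over the 6 libraries (log axis) for all tested transcripts, with the ribosomal and respiratory chain names in colour and all others in grey; 27 of the others lie outside the axis, which ends at a log2 value of 4 in each direction. Most coloured points lie within 0.5 of 0, and the few far from it include Rps2.e below and Ndufb8.d above.

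By role, the cytosolic ribosome was balanced. Of 40 tested large-subunit transcripts 21 had estimates higher in ARM and 19 lower (median log2 fold change 0.04), and of 24 small-subunit transcripts 14 were higher and 10 lower (median 0.04). The mitochondrial large subunit was split 4 higher and 7 lower (median -0.01). The mitochondrial small subunit leaned one way, with 9 of 10 estimates higher in ARM and a median of 0.31, though 0 of 10 passed the threshold and the 10 come from 8 locus names, Mrps30 and Mrps31 giving a pair each. With no filter, 12 of all 18 of its transcripts were higher in ARM and 6 lower, with a median of 0.14, and on leaving out 1 library the median of those tested lay between 0.14 and 0.45. Complex I had 13 higher and 9 lower (median 0.11), complex II 3 and 2 (0.07), complex III 5 and 1 (0.31) and complex V 7 and 4 (0.04), of which Atp5sl is 1 of the 7, leaving 6 and 4 (0.02) without it. The 6 complex III transcripts come from 3 locus names. Of 3 tested transcripts with complex IV subunit names 1 was higher and 2 lower (median -0.27). The 2 lower were Cox5b.b (-0.27) and Cox7a2l.c (-0.68), and Cox7a2l.c was placed here by its name alone. Of 3 assembly factor transcripts 2 were higher and 1 lower (0.39). The complex III median was 0.09 at a mean of 10 CPM and 0.04 without ARM replicate 2, and that of complex IV subunits 0.03 without normal replicate 3. The median of the mitochondrial large subunit was 0.03 with total-count scaling and -0.17 with no filter, and it ran from -0.23 without ARM replicate 3 to 0.20 without ARM replicate 2. Complex I came to 0.00 without ARM replicate 1, and complex II ran from -0.13 without ARM replicate 3 to 0.21 without normal replicate 2. The medians of complex V and of both cytosolic subunits also changed sign on leaving out 1 library, so medians near 0 carry no direction.

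**Figure D3:**
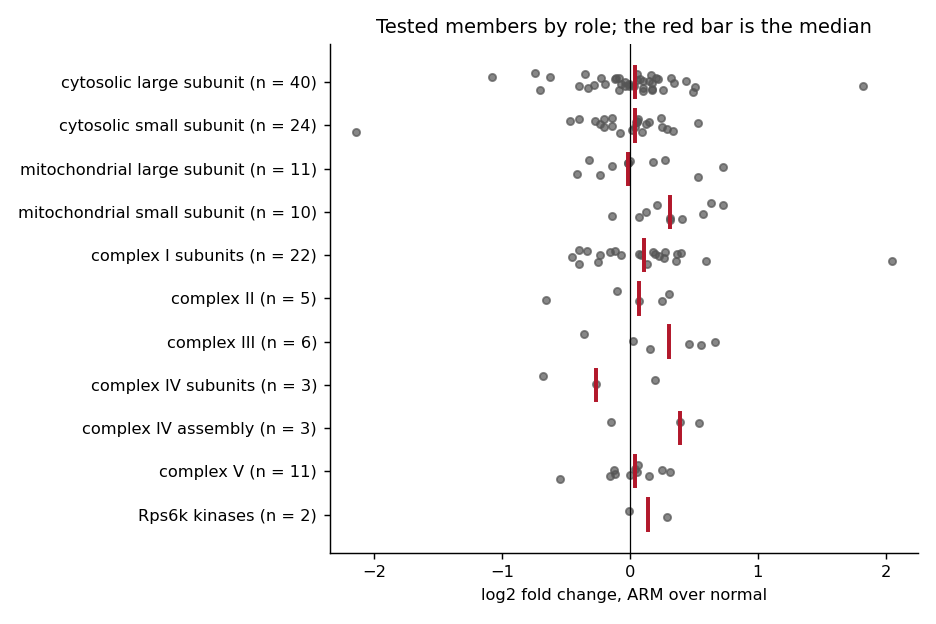
Log2 fold change, ARM over normal, of each tested transcript (points) by role, with the median as a red bar. The medians of the mitochondrial small subunit (0.31), complex III (0.31) and complex IV assembly (0.39, 3 transcripts) lie to the right, those of the cytosolic subunits near 0.

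The smallest p values were at Mrps31, which encodes a protein of the mitochondrial small subunit. Mrps31.d (chromosome 16, 74480710 to 74481274) had 61, 63 and 64 counts in ARM libraries, against 37, 41 and 46 in normal libraries. A second variant at the locus, Mrps31.b (chromosome 16, 74467965 to 74469792), had 46, 57 and 63 counts in ARM libraries, against 39, 29 and 33 in normal libraries. In both, every ARM library lay above every normal one. Another variant, Mrps31.c, was too low to be tested and did not separate, with 14, 8 and 6 counts in ARM libraries, against 9, 10 and 10 in normal libraries; it was named after its values were seen. The log2 fold changes were 0.63 (SE 0.17, unadjusted p = 0.00788, edgeR) for Mrps31.d and 0.73 (SE 0.22, unadjusted p = 0.0128, edgeR) for Mrps31.b, and the adjusted p was 0.832 for each. The variants b and d do not overlap, but they share a locus and are not independent observations. Its promoter, printed above, has TTCCGG just downstream of the start and no pyrimidine run of 8.

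Uqcrbl.b carries an older name of the locus of Uqcrb, a complex III subunit that helps bind ubiquinone. It had 84, 80 and 82 counts in ARM libraries, against 65, 53 and 39 in normal libraries, without overlap in CPM. The log2 fold change was 0.67 (SE 0.25, unadjusted p = 0.0314, adjusted p = 0.832, edgeR). Rps2.e, at the locus of a small-subunit protein, had 37 counts in each of the 3 ARM libraries, against 372, 62 and 47 in normal libraries. One normal library thus set the size of this difference: the log2 fold change was -2.14 (SE 0.83, unadjusted p = 0.0381, adjusted p = 0.832, edgeR) with all libraries and -0.51 without normal replicate 1. Next came Cox19.a, at the locus of a copper-handling factor of complex IV assembly, with 187, 225 and 166 counts in ARM libraries, against 147, 150 and 154 in normal libraries. It was higher in ARM without overlap in CPM, with a log2 fold change of 0.39 (SE 0.16, unadjusted p = 0.0507, adjusted p = 0.833, edgeR). Sdhd.b, at the locus of a membrane anchor of complex II, had 62, 52 and 39 counts in ARM libraries, against 97, 86 and 64 in normal libraries. The log2 fold change of Sdhd.b was -0.66 (SE 0.29, unadjusted p = 0.0596, adjusted p = 0.837, edgeR). Its groups overlapped, since the highest ARM library exceeded the lowest normal one in CPM.

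**Figure D4:**
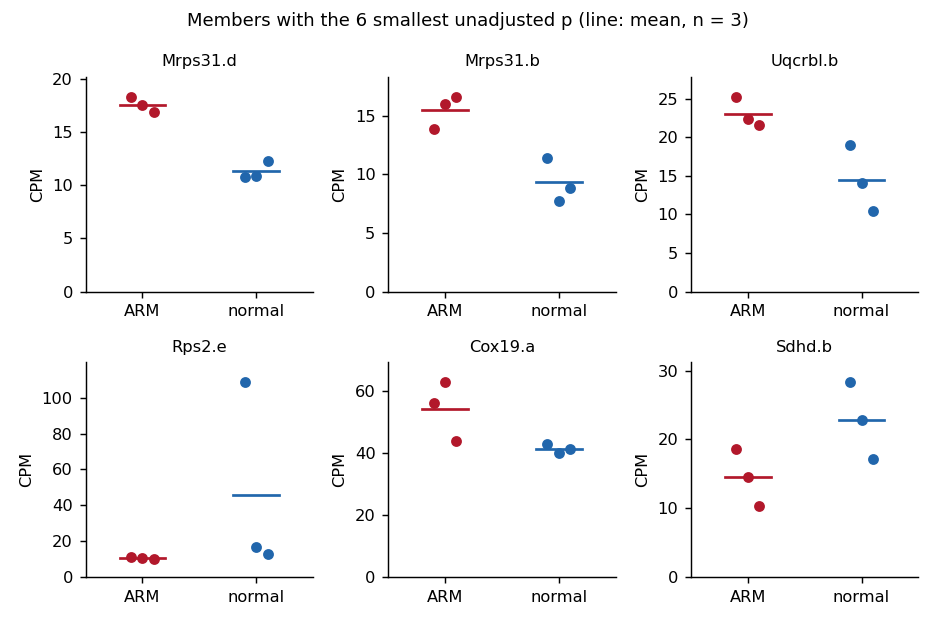
CPM in each library for the 6 transcripts with the smallest unadjusted p, ARM on the left and normal on the right, with a line at the mean of 3 libraries. The normal mean of Rps2.e is raised by 1 library, and the ARM and normal libraries of Sdhd.b overlap.

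The other transcripts without overlap in CPM were Ndufa6.b, Rpl36a.c and Rpsa.e, higher in ARM, and Rps12.d, Rps24.f and Rpl22l1.c, lower in ARM. All but Rpsa.e were named after their values were seen. Their differences were small. Rpsa.e, at the locus of a small-subunit protein that is also described as a laminin receptor, had 226, 264 and 264 counts in ARM libraries, against 218, 254 and 234 in normal libraries. Rps12.d had 147, 174 and 170 counts in ARM libraries, against 183, 196 and 195 in normal libraries. Its CPM averaged 45.9 ± 2.40 in ARM and 52.6 ± 0.797 in normal samples (SD, n = 3 each). Rps24 held variants with unlike estimates: Rps24.f averaged 19.5 ± 0.538 CPM in ARM and 23.0 ± 0.431 in normal samples, while the more abundant Rps24.e differed by a log2 fold change of 0.02 (SE 0.12).

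Estimates beyond 1 on the log2 scale belonged to 4 of the 137 (2.92%), against 3.72% of all tested: Rps2.e, Ndufb8.d, Rpl41.a and Rpl36al.a, of which all but Rps2.e were named after their values were seen. Rpl41.a had 23, 30 and 133 counts in ARM libraries, against 28, 23 and 0 in normal libraries, and an estimate of 1.82. It covers nearly the same interval as Rpl41.1.b (chromosome 7, 2972897 to 2973930 and 2972895 to 2973875), and the division of reads between them was not tested. Its normal libraries differed 9.19-fold (ratio of CPM + 1), but its mean of 39.5 counts kept it out of the unsteady transcripts described below. Rpl36al.a had 27, 18 and 5 counts in ARM libraries, against 48, 21 and 40 in normal libraries, and an estimate of -1.08. The groups overlapped in Rpl41.a and Rpl36al.a, and so they did in Ndufb8.d, described below with the unsteady transcripts.

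Other leading transcripts of each role lay within the spread between libraries. At complex I, Ndufa7.b, an accessory-subunit locus, had 335, 209 and 310 counts in ARM libraries, against 203, 263 and 197 in normal libraries. At Ndufa13, listed as Ndufa13-ps, variant c had 78, 75 and 69 counts in ARM libraries, against 90, 74 and 51 in normal libraries. The ranges overlapped in both. At complex III, Uqcrc2, which encodes a core subunit, held 3 transcripts, of which Uqcrc2.d was the most abundant, with 106 ± 23.6 CPM in ARM and 104 ± 2.01 in normal samples. Uqcrc2.e, with the smallest p there, had a log2 fold change of -0.36 (SE 0.25). At complex IV, Cox11.a, at the locus of a copper-delivery factor, had 202 ± 13.9 CPM in ARM and 224 ± 18.6 in normal samples, and Cox5b.b 14.9 ± 3.51 in ARM and 17.9 ± 0.791 in normal samples. At complex V, Atp5b.d, at the locus of the catalytic beta subunit, had 36.9 ± 3.81 CPM in ARM and 35.1 ± 5.91 in normal samples. Atp5l.b, named for subunit g, varied more, with 172, 63 and 55 counts in ARM libraries, against 95, 114 and 240 in normal libraries. Sdha.e, at the locus of the flavoprotein of complex II, had 12.0 ± 3.61 CPM in ARM and 10.1 ± 4.62 in normal samples.

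The mitochondrial ribosome showed the same spread below Mrps31. Mrps11.b had 73, 126 and 102 counts in ARM libraries, against 82, 59 and 63 in normal libraries, with a log2 fold change of 0.57 (SE 0.25). Mrps21.c had 20.5 ± 2.79 CPM in ARM and 19.5 ± 4.79 in normal samples, and Mrps27.d 10.05 ± 1.52 in ARM and 7.54 ± 1.49 in normal samples. On the large subunit, Mrpl51.b had 29.9 ± 1.84 CPM in ARM and 24.7 ± 6.60 in normal samples. Mrpl48 and Mrpl52 held several variants each. Mrpl48.b had a log2 fold change of -0.32 (SE 0.35) and Mrpl48.d of 0.73 (SE 0.37), and the abundant Mrpl52.d of -0.01 (SE 0.16) where Mrpl52.e had 0.53 (SE 0.36). The kinase loci Rps6kb2 and Rps6kc1 had 5.03 ± 0.511 and 7.44 ± 3.41 CPM in ARM samples, against 4.08 ± 1.28 and 7.45 ± 1.58 in normal samples.

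Large differences did occur, but between libraries of the same group. Among transcripts tested with a mean of at least 50 counts, 9 of 70 with these names (12.9%) differed over 5-fold between libraries of one group (ratio of CPM + 1), against 6.07% of the table; the rule for this was chosen after values were seen. Rps10.b, an unspliced variant at a small-subunit locus, is the clearest case. It had 262, 311 and 1 counts in ARM libraries, against 272, 1 and 294 in normal libraries, so that 1 library of each group was close to 0 and the others were alike. Mrpl17.c had 17, 365 and 344 counts in ARM libraries, against 319, 236 and 403 in normal libraries, low in a single ARM library. Ndufb8.d, at a complex I accessory-subunit locus, had 213, 6 and 97 counts in ARM libraries, against 66, 7 and 4 in normal libraries. These 3 had adjusted p values of 0.997, 0.959 and 0.875 (edgeR).

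Overlapping transcripts of a locus moved apart in some of these cases, whereas Rps10.b and Mrpl17.c overlapped no other transcript of the table. Cox7a2l.c (chromosome 6, 6696170 to 6709782) had 374, 2000 and 157 counts in ARM libraries, against 54, 1680 and 2523 in normal libraries. An unnamed transcript over nearly the same interval, from 6696340 to 6709774, had 252, 14 and 343 counts in ARM libraries, against 502, 2 and 4 in normal libraries. The unnamed transcript was low in each library where Cox7a2l.c was high, and their sum was 626, 2014 and 500 in ARM libraries, against 556, 1682 and 2527 in normal libraries, still uneven within both groups. Rps16.c had 17, 128 and 68 counts in ARM libraries, against 3, 6 and 175 in normal libraries, while the overlapping Rps16.b had 55, 88 and 125 in ARM libraries, against 126, 154 and 74 in normal libraries. At Rpl18, variant g had 178, 66 and 387 counts in ARM libraries, against 44, 200 and 330 in normal libraries, and the variant c that spans it stayed at 173, 156 and 171 in ARM libraries, against 148, 133 and 171 in normal libraries. At Rpl27 both variants were lowest in the third normal library: variant c had 27, 124 and 29 counts in ARM libraries, against 82, 82 and 13 in normal libraries, and variant d 75, 74 and 95 in ARM libraries, against 87, 84 and 3 in normal libraries. How the counting divided reads between overlapping transcripts is not given in the sources used here, and its part in these values was not tested.

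**Figure D5:**
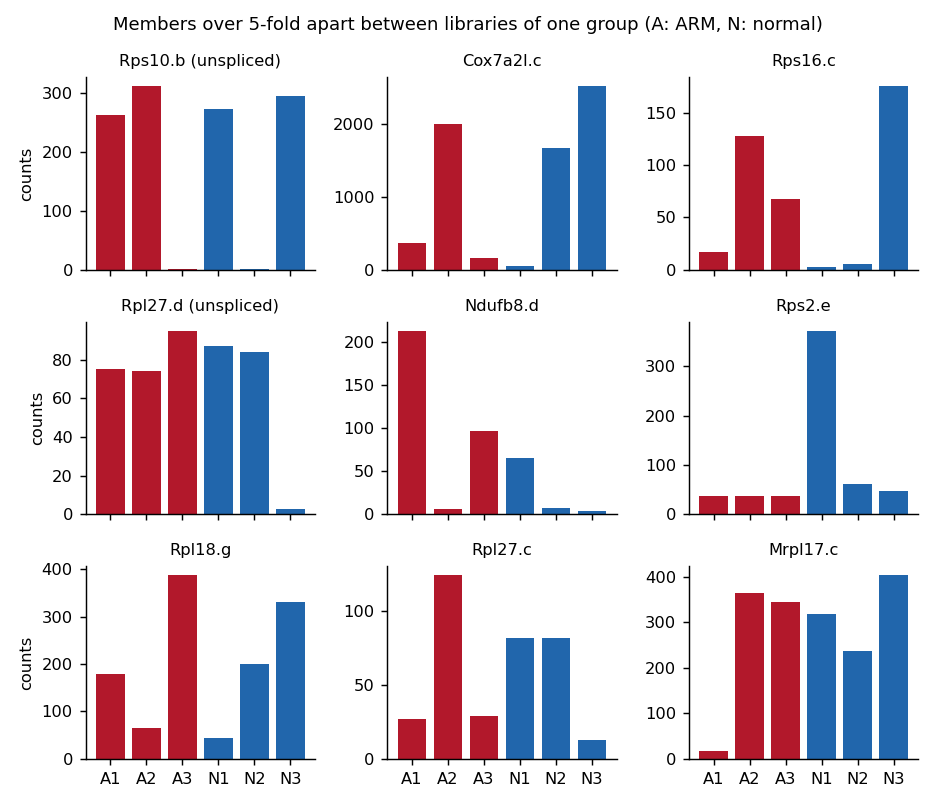
Counts in each library of the 9 transcripts that differed over 5-fold between libraries of one group, with the ARM libraries (A) in red on the left and the normal libraries (N) in blue on the right of each panel; vertical axes differ. High and low libraries occur in both groups for Rps10.b, Cox7a2l.c and Rps16.c, and a single library stands apart for Rps2.e, Mrpl17.c and Rpl27.d.

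Genes that make, regulate or work with ribosomes and the respiratory chain were read from 7 further lists, and 0 transcripts passed the threshold in any of them. Ribosome biogenesis names had 24 of 35 tested estimates higher in ARM and 11 lower, with a median log2 fold change of 0.09. Their most abundant transcript was Gnl3.d, at the locus of the nucleolar GTPase nucleostemin, with 73.9 ± 2.87 CPM in ARM and 73.7 ± 9.997 in normal samples. Translation factors had 34 of 53 higher and 19 lower (median 0.10), led by Eif2s2.c, named for the beta subunit of initiation factor eIF2, with 235 ± 42.2 CPM in ARM and 304 ± 59.96 in normal samples. Mitochondrial translation had 9 of 17 higher and 8 lower (median 0.03), and respiratory chain assembly and carriers 17 of 24 higher and 7 lower (median 0.10). The citric acid cycle list was split 8 and 9, with Cs.d, at the locus of citrate synthase, at 215 ± 27.2 CPM in ARM and 227 ± 34.7 in normal samples. Mitochondrial biogenesis and import was split 6 and 6, and the regulators of ribosomal protein synthesis 7 and 9. Larp1.g, at the locus of the protein that binds the terminal pyrimidine tract, had 136 ± 5.61 CPM in ARM and 144 ± 27.8 in normal samples. The list medians lay between -0.01 and 0.10, beside 0.01 for all tested transcripts.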

How the data were processed

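Total RNA of 6 fetal cord samples (3 ARM, 3 normal) was sequenced; the 6 miRNA samples of the series were not used here. Per the file headers, the deposited table holds a raw count for each transcript and library, beside its length and coordinates. Cuffdiff, Cufflinks 2.1.1, TopHat2 2.0.9 and CASAVA 1.8 appear without roles in the submitters' processing notes, with a mouse build, although the table's identifiers are those of rat. Neither the coordinate build nor the tool and strand option behind the counts is stated in the sources used here. Among 697 transcripts with 6 counts in total, 408 (58.5%) had exactly 1 in every library, so low counts may not be plain read counts.

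ARM columns were matched to samples and normal columns only to their group, so numbers of normal libraries are names. The 6 further per-sample columns of the table were not used. The whole table was tested in R 4.3.3 by edgeR 4.0.16, after TMM scaling and filterByExpr, with a quasi-likelihood fit on phenotype and Benjamini-Hochberg adjusted p-values (threshold 0.05). CPM use TMM-scaled library sizes, and the SE is |log2 fold change| / √F. Locus sums add overlapping transcripts of one name, whatever their strand. The script was tested on simulated counts with known changes. It found 0 of 64 changes of 2-fold, 51 of 63 of 4-fold and 56 of 58 of 8-fold. Of 12727 unchanged transcripts it called 11. Alternatives were DESeq2 1.42.0, its size factors, total-count scaling, no filter, a mean of 10 CPM, limma-voom (limma 3.58.1) and leaving out each library. A median without the transcripts over 5-fold apart within a group was added after seeing the data.

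Members and lists were chosen with earlier results of these data known. Named were transcripts past the threshold, up to 8 per direction at an unadjusted p under 0.05, the 2 highest per kilobase in each role, any with 0 counts in one group and at least 10 in the other (0 found), the most abundant and smallest-p transcript of loci with 3 or more, the 5 highest by CPM, and the most abundant of each list. Some transcripts over 5-fold apart within a group, such as Cox7a2l.c, Rpl18.g and Rps2.e, were named by this rule. Rps16.b and the others over 5-fold apart that the rule did not name were added once their values were known. One of the 15 highest transcripts is not reported here.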

Additional observations from a re-analysis of the deposited data

How the results depend on the processing

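The count of ribosomal and respiratory chain transcripts past the threshold, and of their loci, was 0 under each alternative run. Of all tested transcripts 16 passed, against 9 with no filter, 8 at a mean of 10 CPM, 46 with DESeq2, and 19 to 29 on leaving out 1 library (29 without ARM replicate 1). The 4 at an unadjusted p under 0.05 became 3 to 9 on leaving out 1 library (7 without ARM replicate 1, 9 without normal replicate 3). The median log2 fold change of all tested members stayed between 0.01 and 0.10. The smallest adjusted p of any tested member was 0.383, without normal replicate 3. Of 499 values of 42 named transcripts, 461 kept their direction, 38 reversed and 0 passed the threshold. Log2 fold changes that reversed were Rps6kc1.c 0.0378 and Mrpl52.d 0.0327 with total-count scaling, Rps10.b -0.0206 with limma-voom, and Rps24.e -0.0025 with DESeq2 size factors, -0.0049 with no filter and -0.0026 with DESeq2. On leaving out 1 library, 16 reversed: Atp5b.d spanned -0.0236 to 0.2077, Cox7a2l.c -2.3055 to 0.0333, Mrpl17.c -0.8765 to 0.1288, Mrpl52.d -0.0852 to 0.095, Mrps21.c -0.1104 to 0.2156, Ndufa13-ps.c -0.1425 to 0.2977, Ndufc1.a -0.0481 to 0.1987, Rpl18.g -0.5208 to 0.8055, Rpl27.c -1.0567 to 0.3826, Rpl27.d -0.0719 to 0.9353, Rps10.b -0.5224 to 0.6483, Rps16.c -0.5106 to 3.9358, Rps24.e -0.0239 to 0.0768, Rps6kc1.c -0.2994 to 0.3203, Sdha.e -0.0111 to 0.6363 and Uqcrc2.d -0.1516 to 0.171. The cause was not tested. No paired analysis was possible, since the labels give no pairing of ARM with normal samples. The normal columns also could be matched only to their group. The 168 members had a median of 39.5 counts, and limits from depth and from the spread between libraries were not separated.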
